A study of Mus musculus with 12 samples.

Results

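The nuclear genes of respiratory complex III, complex IV, ATP synthase and cytochrome c were measured by RNA sequencing in bone marrow-derived macrophages, that is, macrophages grown from mouse bone marrow in L929-conditioned medium. The genes were chosen by name, as the protein-coding genes whose symbol begins with Uqcr, Cox4, Cox5, Cox6, Cox7, Cox8 or Atp5, together with Cyc1 and Cycs. This gave 40 of the 12441 genes in the deposited tables: 9 of complex III, 13 of complex IV, 17 of ATP synthase and 1, Cycs, for cytochrome c. Atp5s carries an Atp5 symbol but is not counted among the core subunits of the enzyme. Another 7 genes with similar symbols are annotated as processed pseudogenes and were left out. Each of 4 groups had 3 libraries: cells homozygous for D316Y in COQ6 after 24 h with 100 ng/mL lipopolysaccharide (LPS), WT cells after the same LPS treatment, unstimulated D316Y cells and unstimulated WT cells. LPS is a bacterial cell wall component that activates macrophages, and COQ6 is a mitochondrial enzyme of coenzyme Q synthesis. The labels used here do not give the age or strain of the mice, how the allele was made, or whether libraries of a group came from separate animals, so the tests speak only of variation among these libraries, which may be technical.

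Complex III takes electrons from reduced coenzyme Q and hands them to cytochrome c, complex IV passes them from cytochrome c to oxygen, and both move protons across the inner mitochondrial membrane. ATP synthase, also called complex V, uses the returning protons to make ATP. Each of these complexes is assembled from subunits of nuclear and of mitochondrial genes. In macrophages, LPS is known to turn metabolism towards glycolysis and to lower mitochondrial respiration.

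The libraries held 32767773 to 47181104 reads in the deposited genes. All 8 macrophage markers were present, with a summed level between 32530 and 70810 CPM (reads of a gene per 1000000 reads of effective library size), and all 6 markers of the LPS response rose with LPS in both genotypes. Of 9 neutrophil markers, 5 were in the tables and summed to 42.1 to 51.65 CPM in D316Y cells with LPS, 30.2 to 55.2 CPM in WT cells with LPS, 13.75 to 30.0 CPM in unstimulated D316Y cells and 7.01 to 18.5 CPM in unstimulated WT cells. The neutrophil markers did not move alike: 2 passed as higher and 1 as lower with LPS in each genotype (limma, adjusted p under 0.05). S100a8 had 5.06, 5.17 and 5.29 log2 CPM in D316Y libraries with LPS against 2.95, 3.83 and 4.16 unstimulated. Ngp had -0.76, -1.11 and 0.24 against 1.15, 0.80 and 1.80 in the same libraries. Of 4 dendritic cell markers, 2 were in the tables and summed to at least 13.4 CPM with LPS and at most 2.83 CPM without it. Of 5 stromal markers, 2 were in the tables, at up to 3.56 CPM in sum with LPS and up to 2.47 CPM without it. None of 6 lymphocyte and none of 6 erythroid markers were among the genes of the tables used. Whether such other cells were present, and their part in the LPS differences, was not tested. Whether each library carries the COQ6 variant was not examined, since the tables hold levels only.

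Some libraries stood apart in the level of the 40 genes, given as log2 CPM. The mean over the 40 genes was 6.84 log2 CPM in unstimulated D316Y replicate 1 and 6.61 in unstimulated WT replicate 1, while the other 4 unstimulated libraries lay between 7.19 and 7.28. These 2 libraries also had the lowest shares of mitochondrially encoded reads among the unstimulated libraries, 0.949% in D316Y and 0.449% in WT, against 1.97% to 2.97% in the other 4. With LPS, the means were 7.75, 7.71 and 7.74 log2 CPM in D316Y libraries, against 7.53, 8.002 and 7.71 in WT libraries. The D316Y libraries with LPS were thus close together, and WT libraries 1 and 2 lay below and above them.

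**Figure D1:**
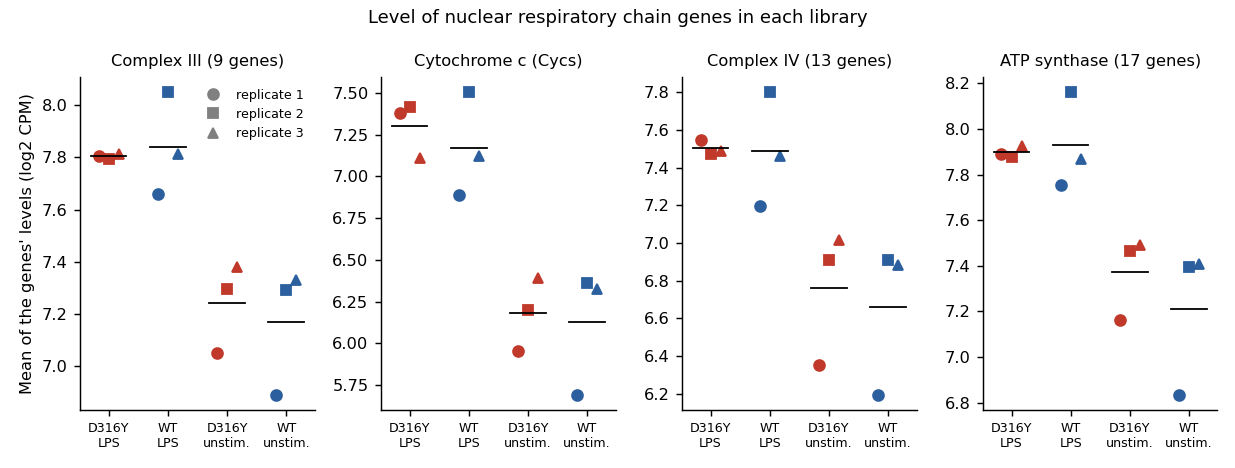
Mean level in log2 CPM (y axis) of the 9 complex III, 13 complex IV and 17 ATP synthase genes and the level of Cycs, for each library of the 4 groups (x axis). Symbols mark replicates and black lines the group means. Libraries with LPS lie above unstimulated libraries of the same genotype in each panel, and unstimulated replicate 1 is lowest in both genotypes, for the 40 genes together at 6.84 log2 CPM in D316Y and 6.61 in WT.

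Levels per length were compared between genes as CPM per kilobase of the principal transcript, a scale on which they spanned a wide range. Atp5e, the epsilon subunit of the ATP synthase head, was highest over all libraries, with 1695 ± 82.1 CPM per kilobase in D316Y cells with LPS, 1669 ± 507 in WT cells with LPS, 1196 ± 398 in unstimulated D316Y cells and 827 ± 411 in unstimulated WT cells (SD, n = 3 each). Cox4i1, the ubiquitous isoform of a core regulatory subunit of complex IV, followed with 1240 ± 89.3, 1339 ± 231, 1115 ± 199 and 1029 ± 220 CPM per kilobase in the same order of groups. Atp5e lay above Cox4i1 in D316Y cells with LPS by more than the spread of either gene, while in the other 3 groups the gap was smaller than the spread of Atp5e, and in unstimulated WT cells the means were in the opposite order. At the other end, Cox7a1 had 10.4 ± 2.00, 10.5 ± 3.64, 10.8 ± 3.08 and 9.99 ± 4.74 CPM per kilobase, Cox6a2 had 4.86 ± 1.499, 4.22 ± 0.895, 1.52 ± 0.574 and 2.06 ± 0.587, and Atp5s had 2.62 ± 0.522, 2.29 ± 0.407, 2.02 ± 0.185 and 1.89 ± 0.443. The values per length depend on the transcript chosen: the principal transcripts of Atp5g1 and Cycs have 4715 and 3123 bases, against 421 bases for Atp5e.

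Cox6a2 and Cox7a1 are the heart and skeletal muscle isoforms of complex IV subunits, and Cox6a1 and Cox7a2 are their widely expressed counterparts. Cox6a2 made up 0.687% ± 0.218 of the Cox6a1 and Cox6a2 level per length in D316Y cells with LPS, 0.520% ± 0.0820 in WT cells with LPS, 0.362% ± 0.150 in unstimulated D316Y cells and 0.445% ± 0.171 in unstimulated WT cells (SD, n = 3 each). Its reads numbered 143, 145 and 69 in D316Y libraries with LPS, 93, 119 and 135 in WT libraries with LPS, 31, 75 and 55 in unstimulated D316Y libraries and 66, 88 and 47 in unstimulated WT libraries. Cox7a1 made up 1.55% ± 0.269 of the Cox7a1 and Cox7a2 level per length in D316Y cells with LPS, 1.58% ± 0.222 in WT cells with LPS, 2.52% ± 0.162 in unstimulated D316Y cells and 3.08% ± 0.312 in unstimulated WT cells. The muscle isoforms were thus a small part of either pair in all 4 groups. Of the 3 genes that encode the same mature c-ring subunit of ATP synthase, Atp5g3 was highest per length and Atp5g1 lowest. Atp5g3 and Atp5g1 had 389 ± 30.1 and 45.1 ± 0.354 CPM per kilobase in D316Y cells with LPS and 202 ± 46.5 and 27.0 ± 5.14 in unstimulated WT cells. The place of Atp5g1 rests on its principal transcript of 4715 bases, against 731 for Atp5g2 and 723 for Atp5g3. Not divided by length, the mean of Atp5g1 lay above that of Atp5g2. These means were 7.73 and 6.67 log2 CPM in D316Y cells with LPS and 6.97 and 6.68 in unstimulated WT cells. The isoforms Cox4i2, Cox6b2, Cox7b2, Cox8b and Cox8c were not analysed here.

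LPS raised much of this gene group in both genotypes on the authors' scale. In D316Y cells 19 of the 40 genes rose and none fell, with a median difference of 0.59 (LPS minus unstimulated, log2) against -0.03 over all genes tested. In WT cells 29 of the 40 genes rose and none fell, with a median of 0.79 against -0.01 over all genes tested. Among all genes tested, 19.4% were higher and 19.0% lower with LPS in D316Y cells, and 18.1% were higher and 19.0% lower in WT cells. The calls are from limma with Benjamini-Hochberg adjusted p under 0.05, and all 40 genes passed the filter on low values in each comparison. The difference was above 0 for 39 of the 40 genes in D316Y cells and for 40 of 40 in WT cells, but with plain read totals as library sizes it was above 0 for 24 in D316Y and 30 in WT cells, and 5 genes rose and 1 fell in each genotype. On that scale 1052 of the 11987 genes tested were higher and 5953 lower in D316Y cells. In WT cells 914 of 11809 were higher and 5966 lower. That scaling moved the median of all genes tested to -0.55 in D316Y and -0.53 in WT cells. Relative to those medians the 40 genes lay higher by a median of 0.63 in D316Y and 0.81 in WT cells. Because the scaling moves every gene of a library alike, these relative values were nearly fixed beforehand and do not test the rise. As a share of all reads in the tables, the 40 genes held 1.12% ± 0.0464 in D316Y cells with LPS and 1.11% ± 0.191 in unstimulated D316Y cells, and 1.12% ± 0.124 in WT cells with LPS and 0.986% ± 0.205 in unstimulated WT cells (SD, n = 3 each). In bulk RNA such as this, a change in the cells present and a change in RNA per cell cannot be told apart.

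The same 18 genes rose in both genotypes: 4 of 9 in complex III, Cycs, 7 of 13 in complex IV and 6 of 17 in ATP synthase. How many of all genes tested rose in both genotypes was not computed, so this count has no background beside it. A further 11 of the 40 passed in WT cells alone and 1, Uqcrfs1, in D316Y cells alone. No difference between the genotypes' LPS responses passed for any of the 40 genes, as described under the interaction. Leaving out each library in turn kept 15 of the 19 calls in D316Y cells, all but Uqcrb, Uqcrfs1, Cox6b1 and Cox7a2l. In WT cells 17 of the 29 calls were kept, all but Uqcr10, Uqcr11, Cox6a2, Cox6c, Cox7a2, Cox7a2l, Cox7b, Atp5c1, Atp5e, Atp5h, Atp5k and Atp5mpl. The count in WT cells was 17 without LPS replicate 2 and 19 without unstimulated replicate 1.

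Cycs encodes somatic cytochrome c, the soluble carrier between complexes III and IV, and lies at chr6:50562563-50566538 (GRCm38). It had 7.38, 7.41 and 7.11 log2 CPM in D316Y libraries with LPS, against 5.96, 6.20 and 6.39 in unstimulated D316Y libraries. In WT cells it had 6.89, 7.503 and 7.12 log2 CPM with LPS, against 5.69, 6.36 and 6.32 unstimulated. In each genotype the groups did not overlap. The difference was 1.12 ± 0.20 (SE) in D316Y (limma, adjusted p = 0.000654) and 1.05 ± 0.20 in WT cells (limma, adjusted p = 0.00121), and Cycs also rose with plain totals, by 0.61 and 0.54.

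In complex III, Uqcrq, a small subunit known as the ubiquinone-binding protein, rose most in both genotypes. It had 8.81, 8.74 and 8.75 log2 CPM in D316Y libraries with LPS against 7.26, 7.84 and 7.93 unstimulated, a difference of 1.09 ± 0.25 (SE; limma, adjusted p = 0.00356). In WT cells it had 8.38, 9.04 and 8.72 log2 CPM with LPS against 6.92, 7.81 and 7.77 unstimulated, a difference of 1.22 ± 0.25 (limma, adjusted p = 0.0018). The groups did not overlap in either genotype. Cyc1, the cytochrome c1 heme protein that passes electrons to cytochrome c, had 6.60, 6.76 and 6.51 log2 CPM in D316Y libraries with LPS against 5.99, 5.56 and 5.87 unstimulated, a difference of 0.81 ± 0.14 (limma, adjusted p = 0.000446). Its difference in WT cells was 0.68 ± 0.14 (limma, adjusted p = 0.0019). Uqcrb, another small subunit, differed by 0.62 in D316Y and 0.88 in WT cells, and the core protein Uqcrc2 by 0.45 and 0.49, all past the threshold; Uqcrc2 turned to -0.07 in D316Y and -0.01 in WT cells with plain totals. Without any single library, the Uqcrb call in D316Y cells was lost in each case, with differences between 0.45 and 0.71. Uqcrfs1, the Rieske iron-sulfur protein, passed in D316Y cells at 0.51 and turned to -0.01 with plain totals. Its difference in WT cells was 0.41 (limma, adjusted p = 0.0692). Uqcr10 and Uqcr11, accessory subunits, differed by 0.94 and 0.55 in WT cells, past the threshold, and by 0.66 and 0.39 in D316Y cells (limma, adjusted p = 0.0706 and 0.115). The core protein Uqcrc1 and the hinge protein gene Uqcrh did not pass in either genotype, at 0.20 and 0.32 in D316Y and 0.21 and 0.64 in WT cells.

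Complex IV held the 2 largest rises in D316Y cells, those of Cox6a2 and Cox5a. Cox5a (chr9:57521274-57532426, GRCm38), which encodes a matrix-side subunit, had 8.47, 8.51 and 8.36 log2 CPM in D316Y libraries with LPS, against 6.64, 6.80 and 7.44 unstimulated. In WT libraries it had 8.04, 8.69 and 8.53 log2 CPM with LPS, against 7.42, 7.17 and 7.15 unstimulated. The groups did not overlap in either genotype, and the difference was 1.49 ± 0.21 in D316Y (SE; limma, adjusted p = 8.61e-05) and 1.18 ± 0.21 in WT cells (limma, adjusted p = 0.000634), or 2.80-fold and 2.26-fold. It stayed past the threshold with plain totals, at 0.97 in D316Y and 0.67 in WT cells. Cox6a2, the muscle isoform with few reads, rose by 1.70 ± 0.36 in D316Y (limma, adjusted p = 0.00187) and by 1.04 ± 0.36 in WT cells (limma, adjusted p = 0.0348), while its counterpart Cox6a1 rose by 0.74 and 0.77. The WT call for Cox6a2 was kept in 2 of the 6 settings that left out a library.

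Cox8a, which encodes a short membrane-spanning subunit, had 8.13, 8.11 and 8.07 log2 CPM in D316Y libraries with LPS against 6.82, 6.91 and 7.34 unstimulated, a difference of 1.08 ± 0.16 (SE; limma, adjusted p = 0.000136). In WT cells the difference was 0.94 ± 0.16 (limma, adjusted p = 0.000471). Cox5b, a zinc-binding matrix-side subunit, differed by 0.97 ± 0.22 in D316Y and 1.00 ± 0.22 in WT cells (limma, adjusted p = 0.00367 and 0.00317). Cox6b1, on the intermembrane side, rose by 0.68 and 0.89, and Cox7a2l, which helps to hold respiratory complexes together in supercomplexes, rose by 0.53 and 0.51. Cox7b and Cox7a2, small membrane subunits, were among the genes of complex IV that differed most in WT cells, at 1.22 ± 0.42 and 1.16 ± 0.35 (limma, adjusted p = 0.0352 and 0.0193). In D316Y cells their differences were 0.69 ± 0.42 and 0.71 ± 0.35, which did not pass (limma, adjusted p = 0.217 and 0.132). Cox7b had 8.26, 9.10 and 8.62 log2 CPM in WT libraries with LPS against 6.23, 8.12 and 7.96 unstimulated, so unstimulated replicate 1 lay far below the other libraries, and both WT calls were lost in 3 of the 6 settings that left out a library. Cox6c passed in WT cells at 0.85 and not in D316Y cells at 0.46. Cox4i1, Cox7c and Cox7a1 passed in neither genotype, with differences of 0.17, 0.45 and -0.02 in D316Y and 0.39, 0.60 and 0.16 in WT cells.

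In ATP synthase, Atp5o (chr16:91925214-91931687, GRCm38), which encodes the stalk subunit OSCP that joins head and membrane parts, rose in both genotypes. It had 8.63, 8.57 and 8.65 log2 CPM in D316Y libraries with LPS against 7.44, 7.69 and 7.65 unstimulated, and 8.48, 8.86 and 8.58 in WT libraries with LPS against 7.29, 7.63 and 7.67 unstimulated. The groups did not overlap, and the difference was 1.02 ± 0.15 in D316Y (SE; limma, adjusted p = 0.00012) and 1.11 ± 0.15 in WT cells (limma, adjusted p = 6.97e-05). With plain totals Atp5o also passed, at 0.51 and 0.60. Atp5j, which encodes a peripheral stalk protein, rose by 0.83 in D316Y and 0.96 in WT cells. Among the head subunits, Atp5b, the catalytic beta subunit, rose by 0.61 and 0.69, and Atp5d, the delta subunit of the rotor, by 0.74 and 0.62. The alpha subunit gene Atp5a1 had differences of 0.05 in D316Y and 0.16 in WT cells and did not pass (limma, adjusted p = 0.881 and 0.582). The gamma subunit gene Atp5c1 passed in WT cells at 0.48, turning to -0.03 with plain totals, and had 0.39 in D316Y cells (limma, adjusted p = 0.0535).

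The 3 genes of the c-ring subunit, which turns in the membrane as protons pass, differed in their LPS values. Atp5g3 rose by 0.77 ± 0.20 in D316Y and 0.97 ± 0.20 in WT cells (SE; limma, adjusted p = 0.00781 and 0.00183), and Atp5g1 rose by 0.65 ± 0.17 and 0.74 ± 0.17 (limma, adjusted p = 0.0086 and 0.00399). Atp5g2 had 6.69, 6.58 and 6.74 log2 CPM in D316Y libraries with LPS against 6.65, 6.67 and 6.67 unstimulated, and 6.82, 6.89 and 6.67 in WT libraries with LPS against 6.66, 6.61 and 6.76 unstimulated. Its groups overlapped in both genotypes, with differences of 0.01 ± 0.11 in D316Y and 0.12 ± 0.11 in WT cells (limma, adjusted p = 0.975 and 0.453), and with plain totals it was the gene counted as lower, at -0.51 and -0.39. Whether Atp5g2 differed from Atp5g1 and Atp5g3 in its response was not tested. Atp5e, Atp5mpl, Atp5k, Atp5j2 and Atp5h, small subunits of the rotor, the membrane part and the stalk, passed in WT cells at 1.14, 1.06, 0.96, 0.82 and 0.69. In D316Y cells they had 0.57, 0.57, 0.71, 0.45 and 0.43, with adjusted p between 0.0901 (Atp5k) and 0.273 (Atp5e) in limma. The WT calls of Atp5e, Atp5mpl and Atp5k were each kept in 3 of the 6 settings that left out a library. That of Atp5h was kept in 5 and that of Atp5j2 in 6. Atp5f1, Atp5l and Atp5s passed in neither genotype, with differences of 0.23, 0.52 and 0.36 in D316Y and 0.40, 0.96 and 0.29 in WT cells.

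Uqcrh, Cox6c, Atp5k and Atp5l share sequence with the 7 processed pseudogenes in the tables, so reads may have been split between them. On the log2 CPM scale, not per length, the pseudogenes' group means reached at most 4.05 (Atp5l2-ps, WT cells with LPS), and Atp5l had 9.44 in that group.

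**Figure D2:**
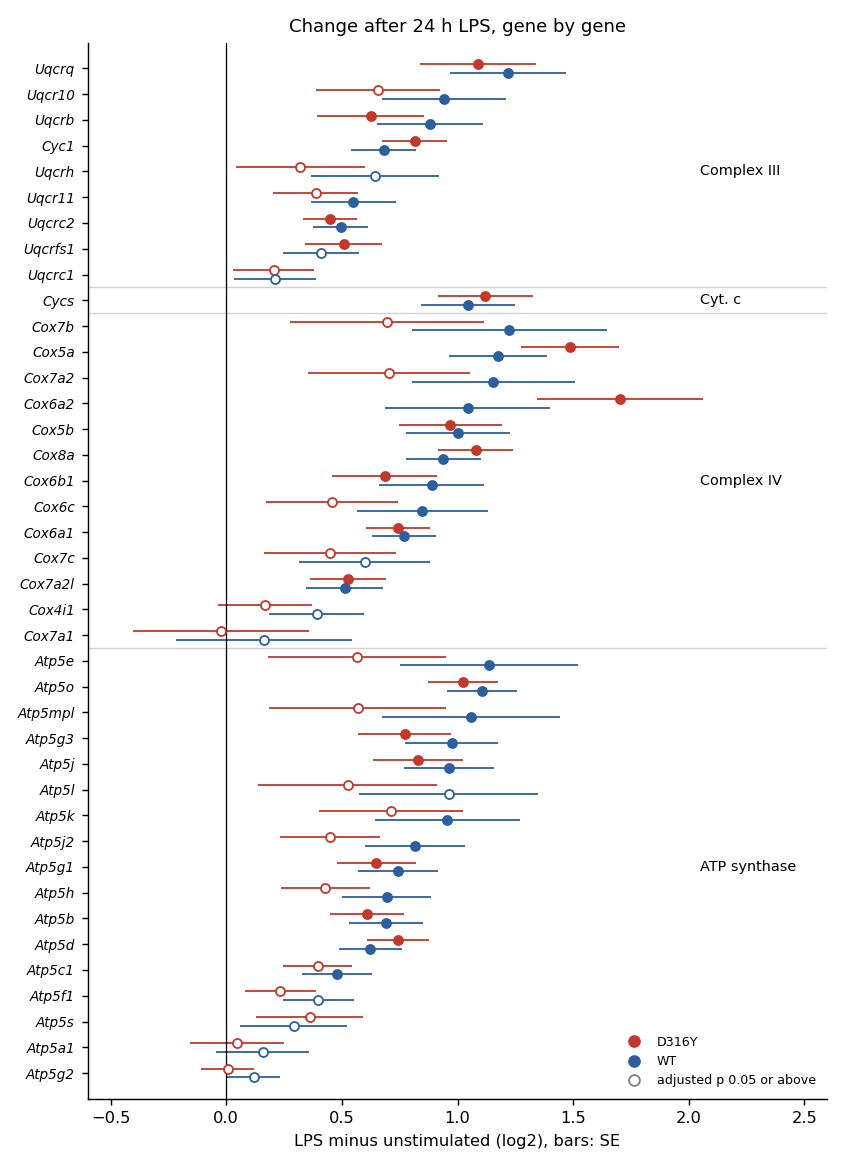
Difference between LPS and unstimulated libraries (x axis, log2) for each of the 40 genes (y axis, grouped by complex) in D316Y (red) and WT cells (blue), with SE bars. Filled points passed limma at an adjusted p under 0.05, 19 in D316Y and 29 in WT cells, and 39 and 40 of the differences lie above 0. With plain totals as library sizes 16 of the 40 differences in D316Y and 10 in WT cells lie below 0. They include the passed differences of Uqcrc2 (both genotypes), Uqcrfs1 (D316Y) and Atp5c1 (WT), and that of Atp5g2, which had passed in neither genotype.

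The partners of these subunits behaved unevenly with LPS. The mitochondrial genome encodes mt-Cytb of complex III, mt-Co1, mt-Co2 and mt-Co3 of complex IV and mt-Atp6 and mt-Atp8 of ATP synthase, and none of those tested passed in either genotype. Their median difference was -0.66 over 6 genes in D316Y and -0.12 over 5 genes in WT cells, where mt-Atp8 lay under the filter on low values. mt-Cytb had 10.82, 10.66 and 10.81 log2 CPM in D316Y libraries with LPS against 10.83, 12.39 and 11.91 unstimulated. In WT cells it had 10.18, 10.93 and 10.42 log2 CPM with LPS against 9.71, 11.92 and 11.85 unstimulated. The D316Y libraries with LPS lay just below the lowest unstimulated one, replicate 1, while in WT cells the groups overlapped because unstimulated replicate 1 lay below all LPS libraries. The difference between the nuclear and the mitochondrial genes was not tested.

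Complex IV can exchange its subunit Ndufa4 for the related protein of AA467197, known as Nmes1, whose human counterpart is induced in inflammation. AA467197 had 2.83, 2.68 and 1.71 log2 CPM in D316Y libraries with LPS against -1.58, -1.06 and -0.78 unstimulated, and 1.28, 2.32 and 2.04 in WT libraries with LPS against -2.16, -0.42 and -1.01 unstimulated. The groups lay far apart, with differences of 3.55 ± 0.46 in D316Y (SE; limma, adjusted p = 3.93e-05) and 3.07 ± 0.46 in WT cells (limma, adjusted p = 0.000143). Ndufa4 had differences of -0.09 ± 0.39 in D316Y and 0.42 ± 0.39 in WT cells and did not pass (limma, adjusted p = 0.883 and 0.434), and with plain totals it lay at -0.60 and -0.09. Higd1a, which encodes a hypoxia-inducible protein that binds complex IV, rose by 1.56 in D316Y and 1.67 in WT cells (limma, adjusted p = 0.000212 and 0.000135).

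Among 24 assembly factors of complex IV, 4 rose and 1 fell in D316Y cells, and 5 rose and 1 fell in WT cells. Coa5, an early assembly factor, rose by 1.34 and 1.04, Sco1, which carries copper to the complex, by 1.24 and 0.93, Cox18, which inserts mt-Co2 into the membrane, by 1.31 and 0.78, and Cmc4 by 0.79 and 0.97. Cox19, another copper-handling protein, passed in WT cells alone at 0.67. Cmc2 fell by 0.45 in D316Y cells and fell by 0.39 in WT cells. In complex III assembly, Uqcc2 was the gene that passed, in WT cells at 1.03, of 5 tested there, and none of 6 passed in D316Y cells. Of 7 ATP synthase assembly and accessory genes, Usmg5, a small membrane subunit, and Tmem242 passed in WT cells at 1.24 and 0.57, and none passed in D316Y cells. In unstimulated WT libraries Uqcc2 had 5.73, 6.75 and 6.72 log2 CPM and Usmg5 had 5.64, 7.53 and 7.44, so replicate 1 lay far below. The differences of Uqcc2 and Usmg5 in D316Y cells were 0.73 and 0.69. In complex II, which feeds electrons to coenzyme Q, Sdhb, Sdhd and Sdhaf2 rose in both genotypes, 3 of 7 in each, with Sdhb at 0.91 in D316Y and 0.98 in WT cells. Of 12 regulators of mitochondrial biogenesis, Ppargc1b, a transcriptional coactivator, rose by 1.46 in D316Y and 1.41 in WT cells, and Slirp, which stabilises mitochondrial mRNA, by 1.03 and 1.17. Esrra, a nuclear receptor partner of Ppargc1b, passed in D316Y cells alone at 1.27. Of 8 carriers and partners of ATP synthase, Slc25a5, an ATP/ADP exchanger, rose by 0.58 and 0.73 and Vdac3, a pore of the outer membrane, by 0.71 and 0.67. The phosphate carrier Slc25a3 passed in D316Y cells at 0.41 and Vdac1 in WT cells at 0.48, and these 2 calls turned to -0.10 and -0.03 with plain totals. These shares stand beside 19.4% higher and 19.0% lower calls among all genes tested in D316Y cells, and 18.1% and 19.0% in WT cells.

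**Figure D3:**
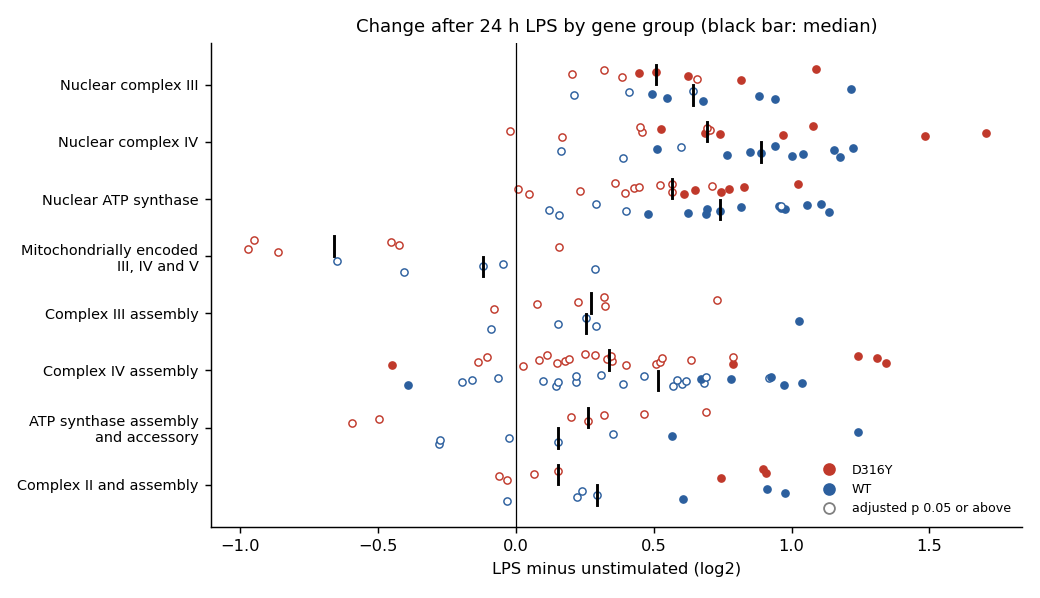
Difference between LPS and unstimulated libraries (x axis, log2) for single genes of each group (y axis), in D316Y (red) and WT cells (blue), with black bars at the group medians. Filled points passed limma at an adjusted p under 0.05. The plotted nuclear genes of complexes III, IV and V lie to the right of 0 but for Cox7a1 in D316Y cells at -0.02. Sdha of complex II lies at -0.03 in both genotypes, and no mitochondrially encoded gene passed, with medians of -0.66 in D316Y and -0.12 in WT cells. With plain totals as library sizes every difference is lower, by 0.52 in D316Y and 0.51 in WT cells.

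Promoters were searched for letters bound by factors known for respiratory genes. The search took all of the 40 genes with a promoter entry, not only the 18 that rose in both genotypes. Shares for those 18 alone were not computed. RefSeq entries (GRCm38.p6) matched 29 of the 40 genes, by Ensembl identifier or otherwise by symbol. The 250 bases before the start were searched on both strands. The other protein-coding genes set beside them were matched by symbol alone and averaged at least 0 log2 CPM in some group. The core GCGCATGC of nuclear respiratory factor 1 (NRF1) was in 17.2% of the 29, in Cycs, Cox6a1, Atp5k, Atp5l and Atp5g2, against 5.43% of 8417 other protein-coding genes in the tables. The ETS core CCGGAAG was in 27.6% against 17.3%, the cyclic AMP response element TGACGTCA in 6.90% against 3.20%, the YY1 letters AAGATGGC in 3.45% against 2.69%, and the letters AAGGTCA bound by estrogen-related receptors in 6.90% against 3.42%. Over all 27025 genes with an entry the shares were 2.56%, 7.83%, 1.77%, 1.83% and 4.70%. Printed below in lower case, with motif letters on either strand in capitals, are Cycs, the 2 genes with both the NRF1 and the ETS core, and Cox5a, the gene of complex IV that rose most in D316Y cells among those with many reads.
Cycs: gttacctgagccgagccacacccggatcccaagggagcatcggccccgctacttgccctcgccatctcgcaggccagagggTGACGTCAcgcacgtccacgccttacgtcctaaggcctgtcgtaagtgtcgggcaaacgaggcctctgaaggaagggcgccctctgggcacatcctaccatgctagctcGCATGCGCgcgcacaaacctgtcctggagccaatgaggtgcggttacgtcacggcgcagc
Cox6a1: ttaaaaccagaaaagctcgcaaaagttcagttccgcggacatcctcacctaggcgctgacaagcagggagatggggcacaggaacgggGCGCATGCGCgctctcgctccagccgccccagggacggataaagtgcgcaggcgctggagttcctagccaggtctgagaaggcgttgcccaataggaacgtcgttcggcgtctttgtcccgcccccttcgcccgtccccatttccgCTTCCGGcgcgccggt
Atp5l: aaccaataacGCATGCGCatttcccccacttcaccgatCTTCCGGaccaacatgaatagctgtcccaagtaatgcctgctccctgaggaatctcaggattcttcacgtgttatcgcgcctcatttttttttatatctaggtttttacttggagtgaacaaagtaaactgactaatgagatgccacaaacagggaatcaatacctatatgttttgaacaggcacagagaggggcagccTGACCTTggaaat
Cox5a: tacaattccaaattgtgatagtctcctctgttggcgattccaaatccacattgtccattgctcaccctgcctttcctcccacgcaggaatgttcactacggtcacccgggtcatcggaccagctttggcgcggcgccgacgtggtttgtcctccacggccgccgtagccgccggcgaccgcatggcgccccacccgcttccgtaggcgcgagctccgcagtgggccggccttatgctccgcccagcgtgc
The stretches lie at chr6:50566570-50566819 (minus strand), chr5:115348959-115349208 (minus strand), chr9:44920743-44920992 (minus strand) and chr9:57520982-57521231 (plus strand). In Cycs the capitals mark the cyclic AMP element that begins 169 bases before the start and the NRF1 core that begins 60 bases before it. In Cox6a1 they mark 2 overlapping NRF1 cores, on opposite strands, that begin 162 and 160 bases before the start, and an ETS core 16 bases before it. In Atp5l they mark an NRF1 core 240 bases, an ETS core 212 bases and the receptor letters 13 bases before the start. None of these letters were found in the Cox5a stretch, which was printed because of its LPS difference. Whether the letters go with the size of the LPS difference was not tested. The 5 genes with the NRF1 core had LPS differences of 1.12 (Cycs), 0.74 (Cox6a1), 0.71 (Atp5k), 0.52 (Atp5l) and 0.01 (Atp5g2) in D316Y cells and 1.05, 0.77, 0.96, 0.96 and 0.12 in WT cells, of which 2 and 3 passed. The matches describe the sequence and say nothing on binding.

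Whether the LPS response depended on genotype was asked with the interaction, the D316Y difference minus the WT difference. None of the 40 genes passed in limma, 0 had an unadjusted p under 0.05, and 0% of the 11918 genes tested were called. The median was -0.13 and 31 of 40 values were below 0, but without unstimulated WT replicate 1 the median was 0.03. The comparison uses all 12 libraries, so its values share libraries with the other comparisons. The lowest values were -0.57 (Atp5e, 95% interval -1.74 to 0.60), -0.53 (Cox7b, -1.81 to 0.75) and -0.49 (Atp5mpl, -1.66 to 0.68), and the highest was 0.66 (Cox6a2, -0.43 to 1.75). The count of 19 calls in D316Y and 29 in WT cells therefore does not show that the responses differed. The intervals of the 40 genes reached from -1.81 to 1.75 and had a median half-width of 0.62, so differences of that size could not be told from 0.

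D316Y cells were compared with WT cells within each condition, to ask whether the COQ6 variant goes with another level of the complexes that act after coenzyme Q. With LPS, none of the 40 genes passed in limma, none had an unadjusted p under 0.05, and 0.0442% of all genes tested were called. The median difference (D316Y minus WT) was 0.00, with 20 values above and 20 below 0. The smallest unadjusted p-values belonged to Atp5b at -0.23, Uqcrc1 at -0.21, Atp5a1 at -0.20, Cox6a1 at -0.18, Atp5j2 at -0.18 and Cyc1 at -0.14. Atp5b had 8.90, 8.94 and 8.93 log2 CPM in D316Y libraries, against 9.24, 9.04 and 9.19 in WT libraries, with a 95% interval of the difference of -0.49 to 0.02 (limma, adjusted p = 0.797). Uqcrc1 had 8.54, 8.58 and 8.52 log2 CPM in D316Y libraries, against 8.83, 8.62 and 8.82 in WT libraries, with an interval of -0.47 to 0.05. The D316Y libraries lay below the WT libraries for Atp5b, Uqcrc1 and Cox6a1, 3 of the 40 genes, and groups did not overlap for 12.5% of all genes tested, so this count stands below the background. The median difference over the 40 genes was -0.12 without WT replicate 1 and 0.15 without WT replicate 2, the lowest and highest WT libraries.

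In unstimulated cells, none of the 40 genes passed in limma, none had an unadjusted p under 0.05 without the replicate block, and 0.00868% of all genes tested were called. The median difference was 0.12 against -0.02 over all genes tested, with 29 of 40 values above 0. Without WT replicate 1 the median was -0.06, with 7 values above 0, and without both replicate 1 libraries it was 0.05. The smallest unadjusted p-values belonged to Cyc1 at -0.28, Cox7b at 0.71, Atp5e at 0.63, Atp5mpl at 0.61, Cox8a at -0.24 and Cox5a at -0.28. Cyc1 had 5.99, 5.56 and 5.87 log2 CPM in D316Y libraries, against 6.23, 5.91 and 6.11 in WT libraries, with overlapping groups and an interval of -0.67 to 0.12 (limma, adjusted p = 0.942). Cox7b had 7.46, 8.48 and 8.50 log2 CPM in D316Y libraries, against 6.23, 8.12 and 7.96 in WT libraries, with an interval of -0.46 to 1.87. The wide interval of Cox7b covers a large spread in both groups, in which replicate 1 was lowest in each. Deviations of same-numbered unstimulated libraries from their group means correlated at 0.593, 0.504 and 0.145. Deviations within a group sum to 0, so replicate 1 standing apart in both genotypes can alone give such values, and pairing is not shown. Within same-numbered pairs the difference was -0.24, -0.35 and -0.24 for Cyc1 and 1.23, 0.36 and 0.54 for Cox7b, of one sign for each gene. With the replicate block, 13 of the 40 genes had an unadjusted p under 0.05, against 18.4% of all genes tested, and still none passed after adjustment over all genes, where 0.0521% of them did (limma, smallest adjusted p = 0.122, for Atp5mpl). The blocked 95% intervals, not adjusted for the number of genes, were -0.48 to -0.07 for Cyc1 (limma, adjusted p = 0.177) and 0.32 to 1.10 for Cox7b (limma, adjusted p = 0.135). All 3 pairs were of one sign for 25 of the 40 genes, 18 of them higher in D316Y, and for 43.0% of all genes tested.

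In the authors' deposited tables none of the 40 genes had an adjusted p under 0.05 either, against 0.0804% of all genes with LPS and 0.0563% unstimulated. The smallest adjusted p of the 40 genes in the authors' deposited tables was 0.287 for Atp5b with LPS and 0.202 for Cyc1 unstimulated. The authors' deposited log2 fold changes of these were -0.26 for Atp5b and -0.34 for Cyc1. With unadjusted p under 0.05, the authors' deposited tables listed 3 of the 40 genes with LPS (Atp5b, Uqcrc1 and Atp5a1) and 4 unstimulated (Cyc1, Cox7b, Atp5mpl and Atp5e). Of all genes in the authors' deposited tables, 12.2% with LPS and 16.5% unstimulated were under that threshold, so both counts lie below the background.

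**Figure D4:**
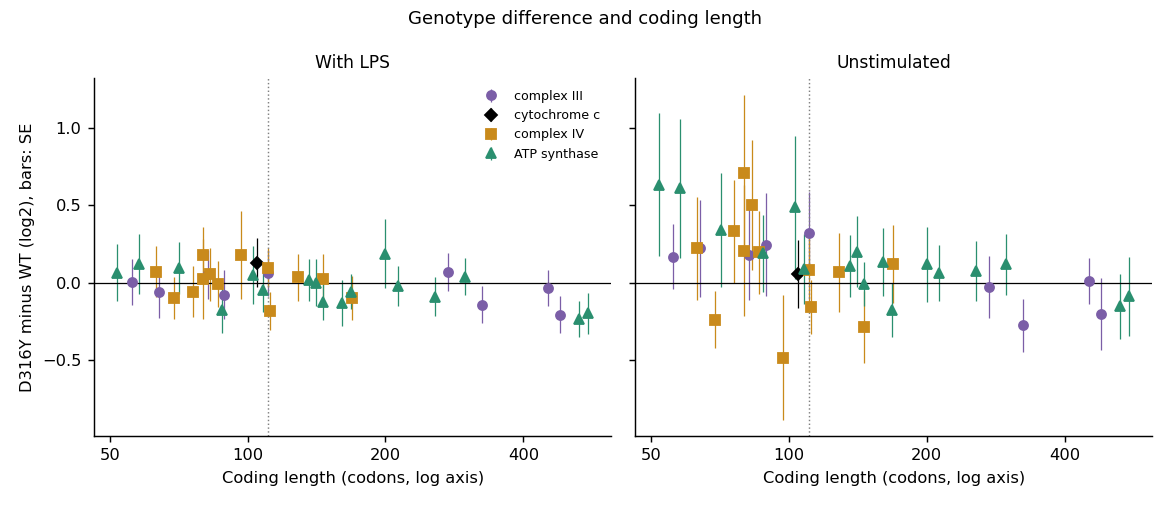
Difference between D316Y and WT libraries (y axis, log2, SE bars) against coding length in codons (x axis, log scale) for the 40 genes, with LPS (left) and unstimulated (right). The dotted line marks 111 codons. None of the differences passed limma, and in unstimulated cells the 21 genes of up to 111 codons had a median difference of 0.22 against 0.01 for the 19 longer genes.

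The unstimulated genotype differences and the libraries that stood apart went with coding length. The 21 genes with coding sequences of up to 111 codons had a median difference between D316Y and WT of 0.22 in unstimulated cells, against 0.01 in the 19 longer ones, and the 340 other protein-coding genes of that length had 0.14 against -0.04 in the 10148 longer ones. Replicate 1 of unstimulated D316Y cells lay below the other 2 replicates by a median difference of -0.70 in the shorter and -0.14 in the longer genes, and replicate 1 of unstimulated WT cells by -0.94 and -0.25. In the other protein-coding genes, these medians were -0.47 in shorter and 0.08 in longer genes for D316Y replicate 1. For WT replicate 1 they were -0.54 and 0.12. With LPS, WT replicate 1 had -0.45 and -0.24 relative to its other 2 replicates, and WT replicate 2 had 0.51 and 0.26. The other protein-coding genes had -0.36 and 0.09 in WT replicate 1 with LPS and 0.43 and -0.07 in WT replicate 2. The LPS difference itself had medians of 0.62 in shorter and 0.51 in longer genes in D316Y cells and of 0.94 and 0.62 in WT cells, against 0.25 and -0.04 in the other protein-coding genes in D316Y and 0.32 and -0.06 in WT cells. The part of these library differences in the genotype and LPS results was not tested.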

How the data were processed

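RNA sequencing values of 12 libraries were read from 2 deposited tables. The authors deposited log2 CPM values of all libraries, identical in both tables, and per the file headers each table also holds, for 1 genotype comparison, a log2 fold change, a p-value and its adjusted form. The submitters' processing notes name edgeR, limma, bcl2fastq, featureCounts 1.4.6-p5, Subread and STAR 2.5.1a, without their roles. The genome build is not given in the sources used here. Each table had 12493 rows, 52 of them repeats, which left 12441 genes, all found in GENCODE M21 (GRCm38), the source of positions and lengths. A value is the log2 of the reads, with 0.5 added, divided by an effective size: 100% of values under 200 reads gave whole reads within 0.01, so reads per gene were recovered. Reads over effective size ran between 0.759 and 0.841 in unstimulated and between 1.08 and 1.21 in LPS libraries. No molecular identifiers are mentioned, so reads may repeat molecules.

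Tests were two-sided and run in R 4.3.3 (limma 3.58.1; data.table, version 1.17.8) with trended, robust eBayes. A gene was tested where either compared group averaged 0 log2 CPM or more, with Benjamini-Hochberg adjustment over all genes tested and a threshold of 0.05. Genotype comparisons used their own 6 libraries, and LPS comparisons and the interaction came from 1 fit of 4 groups. Errors are limma's SE or the SD of replicates. On simulated data with 200 changed genes the fits were checked. Python 3.11.15 with pandas 2.3.3, numpy 2.4.6 and matplotlib 3.10.9 did the rest. The 40 genes and the lists were chosen with earlier results of these data known. Named in the text are Cyc1, Cycs and isoform pairs, up to 4 rises or falls per complex among called genes, in genotype comparisons the 6 smallest p-values, and up to 3 rises and falls per other list; remaining members are named to account for all 40, and Cmc4 and Cox19 beyond that rule.

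Same-numbered libraries were checked for pairing by correlating deviations from group means over genes. The correlations were 0.593, 0.504 and 0.145 between unstimulated D316Y and WT cells, so pairs and a replicate block are also given for them. These correlations do not show that the libraries were paired. The main fits and the interaction had no block, and the block changed none of the 40 adjusted calls in that comparison. Alternatives were the scaling, filters, the variance model, voom on the recovered reads, the block and leaving out libraries.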

Additional observations from a re-analysis of the deposited data

How the results depend on the processing

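No call among the 40 genes appeared in the genotype comparisons or the interaction under any alternative run. The LPS counts and medians kept their direction and stayed within 1.5 times under filters, median centring, the variance model, voom (20 genes higher in D316Y and 29 in WT cells) and fits of only the 2 groups compared (23 and 22). Plain totals as library sizes gave 5 genes higher and 1 lower in each genotype, with medians of 0.074 in D316Y and 0.28 in WT cells. Over all genes tested they gave 1052 of 11987 higher and 5953 lower in D316Y cells. In WT cells they gave 914 of 11809 higher and 5966 lower. Plain totals turned the called difference of Uqcrc2 to -0.068 in D316Y and -0.015 in WT cells. The called differences of Uqcrfs1 in D316Y and Atp5c1 in WT cells turned to -0.0075 and -0.031. Atp5g2, not called on the authors' scale, was the gene called lower, at -0.51 in D316Y and -0.39 in WT cells. By construction this scaling moves every gene of a library alike, and the reason for the authors' effective sizes was not tested. Leaving out a library gave 15 to 18 genes higher in D316Y and 17 to 32 in WT cells, 17 without LPS replicate 2 and 19 without unstimulated replicate 1. Leaving out both unstimulated replicate 1 libraries gave 22 in D316Y and 32 in WT cells. Between same-numbered libraries with and without LPS the correlations were -0.166, -0.1802 and -0.0434 in D316Y and 0.317, 0.150 and -0.0108 in WT cells. Between D316Y and WT libraries with LPS they were -0.0980, 0.0591 and -0.0370. None of these libraries were treated as paired in the main fits. With the replicate block 25 genes in D316Y and 34 in WT cells were higher with LPS. Over all genes tested, 2475 of 11795 in D316Y and 2321 of 11663 in WT cells were higher with the block. None of the 40 passed with the block in the genotype comparisons. Over all genes the unstimulated genotype comparison called 6 with the block and 1 without it.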
